A study of Homo sapiens with 11 samples.

Results

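The transcription factor NRF2, its regulators and its best known targets were followed in ARPE-19, a long-used human cell line derived from the retinal pigment epithelium (RPE). The genes were 10 rows of the deposited table, found by symbol among 60605 features: the regulators NFE2L2 (which encodes NRF2), NFE2L1, KEAP1, MAFF and MAFG, and the targets NQO1, HMOX1, GCLM, GCLC and SRXN1. All 10 passed the filter on low values. Stable lines expressed an open reading frame for GFP (a fluorescent protein, the control; 3 libraries), Oct4, Sox2, Klf4, or Oct4, Sox2 and Klf4 together (OSK; 2 libraries each), and RNA was taken after 4 days. The labels name no promoter, clone, ORF species or sequencing batch. They do not say whether libraries of a group came from separate cultures, so the p-values measure only the spread between these libraries. Library names of the factor lines carry the tag mC, which GFP names lack and the labels do not explain. The study used these libraries to show how candidate oxidative effectors respond to the factors.

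NRF2 is a basic leucine zipper factor that turns on genes against oxidants and electrophiles. In unstressed cells KEAP1, an adaptor of a CUL3 ubiquitin ligase, holds NRF2 and marks it for degradation, so NRF2 activity is set largely at the protein level, which RNA counts do not show. Freed NRF2 pairs with a small MAF protein such as MAFF or MAFG on antioxidant response elements, where BACH1 can take its place and repress. The RPE, exposed to light and oxygen, is a tissue in which this pathway has long been studied.

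The core of the antioxidant response element, TGACNNNGC, was searched on both strands in the 250 bases before each RefSeq start site (GRCh38.p14). Of 35116 such windows, 10.9% held it. Entries existed for 9 of the 10 genes (not HMOX1), with 13 windows, and 3 of these windows, before GCLM, KEAP1 and MAFF, held it. Every match found before the genes followed here is printed, without regard to their changes. Genes without a match in these windows changed too, among them NFE2L2, MAFG and GCLC. Capitals mark the match, which reads GCNNNGTCA where it lies on the other strand. Each stretch overlaps an exon of longer transcripts of the same gene in GENCODE 29, and a match is a description of the letters only.
GCLM, chr1:93909446-93909474, minus strand, match from -34 to -26 of the start site: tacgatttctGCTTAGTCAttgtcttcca
KEAP1, chr19:10502807-10502835, minus strand, match from -54 to -46 of the start site: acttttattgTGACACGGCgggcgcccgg
KEAP1, chr19:10502784-10502812, minus strand, match from -31 to -23 of the same start site: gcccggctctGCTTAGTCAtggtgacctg
MAFF, chr22:38201862-38201890, plus strand, match from -122 to -114 of the start site: cttccaggggGCGGGGTCAtacgggggcg
The GCLM match and the second KEAP1 match have the same 9 letters.

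Libraries held 15053300 to 19791775 recovered reads. GFP replicate 1 stood apart, with 42956 features detected and 67.65% of 405 olfactory receptor genes, and OSK replicate 1 less so, with 32493 and 22.96%. The other 9 libraries had 25853 to 26971 features and at most 8.15% of those genes. Each delivered factor gene was far above GFP in the lines labelled for it: POU5F1 (Oct4) averaged 67074 normalised counts in the Oct4 line and 263 in GFP, SOX2 averaged 29123 in the Sox2 line and 62.0 in GFP, and KLF4 averaged 23173 in the Klf4 line and 72.1 in GFP. In OSK the means were 19281 for POU5F1, 17673 for SOX2 and 24336 for KLF4, so POU5F1 and SOX2 were lower there than in the single-factor lines. In the comparisons of OSK with single lines below, the combination and the factor level cannot be told apart. Of 13 RPE markers, RPE65 had at most 3 reads in every GFP library, whereas PMEL, MITF and OTX2 averaged 5147, 3406 and 1881 normalised counts there. Summed RPE markers ranged from 36369 to 40119 in GFP, 21574 to 22372 with Oct4, 24556 to 25252 with Sox2, 28649 to 31610 with Klf4 and 19019 to 19433 with OSK. KRT8 (mean 15930 in GFP and 14283 with Sox2) and KRT18 (5307 and 5015) supplied most of these counts. The sums therefore do not rank the lines on the other markers. PMEL averaged 612 with Oct4, 140 with Sox2, 1270 with Klf4 and 809 with OSK, whereas BEST1 was lowest in OSK (44.3, against 91.1 with Sox2). Of 11 tested, 9 fell with Oct4, 6 with Sox2, 4 with Klf4 and 9 with OSK, and 1 rose with Oct4, 1 with Klf4 and 1 with OSK (limma adjusted p under 0.05). Summed fibroblast markers ranged from 3025 to 4906 in GFP, 2594 to 3719 with Oct4, 7070 to 8434 with Sox2, 1014 to 1404 with Klf4 and 623 to 868 with OSK, mostly from COL1A1. DCN had at most 3 reads in every Oct4, Sox2, Klf4 and OSK library. It was near the floor in GFP too, where its mean was 1.99 normalised counts, against 2.73 in OSK. Of 4 tested fibroblast markers, 0 changed with Oct4, 2 with Sox2, 2 with Klf4 and 1 with OSK. Summed pluripotency markers were 434 to 622 in GFP and 200 to 417 in the factor lines, and of 6 tested, 4 fell with Sox2 and 2 with OSK. Beside these counts, 37.3% of all genes tested changed with Oct4, 41.6% with Sox2, 33.5% with Klf4 and 39.7% with OSK. Those lower were 17.2%, 19.9%, 16% and 20% in that order. The part of the marker shifts in the results below was not tested. In such bulk RNA, fewer cells of a type and less RNA per cell cannot be told apart.

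Per kilobase of exon, 4 of the 5 regulators were more abundant than every target in the GFP cells, and MAFF lay just under GCLC. NFE2L1 averaged 2141 normalised counts per kilobase, KEAP1 512, NFE2L2 378 and MAFG 182. GCLC, the most abundant of the targets, averaged 101 and MAFF 96.5. NQO1 averaged 48.9, SRXN1 45.6, GCLM 40.2 and HMOX1 32.0 per kilobase. Values below are normalised counts per gene and are compared only within a gene.

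NFE2L2 rose in the Klf4 line and further in OSK, and not with Oct4 or Sox2 alone. Its GFP libraries had 2376, 2275 and 2130 normalised counts and its OSK libraries 3450 and 3671. The Klf4 libraries had 2926 and 2902, the Oct4 libraries 2357 and 2129, and both Sox2 libraries 2094. OSK and Klf4 thus lay above every other library, Oct4 overlapped GFP, and Sox2 lay just below it. The log2 change from GFP was 0.66 with OSK (SE 0.07; 1.58-fold; limma adjusted p = 1.42e-06) and 0.37 with Klf4 (SE 0.07; 1.29-fold; limma adjusted p = 0.000615). OSK exceeded the Klf4 line by 0.29 on the log2 scale (SE 0.08; limma adjusted p = 0.0116), a call lost without Klf4 replicate 1, Klf4 replicate 2 or OSK replicate 2 (limma adjusted p = 0.0589, 0.0599 and 0.121). Oct4 and Sox2 did not differ detectably from GFP (-0.01 and -0.11; limma adjusted p = 0.919 and 0.231). Their 95% intervals, -0.16 to 0.14 and -0.26 to 0.04, both end below the change seen with Klf4. NFE2L2 lies at chromosome 2, 177230303 to 177264727 (GRCh38.p14), and its exons overlap AGPS on the other strand, so that unstranded counts of the pair are uncertain.

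KEAP1, the brake on NRF2, fell in the Oct4 and Sox2 lines, those in which NFE2L2 RNA did not pass the test. The GFP libraries had 1861, 1959 and 1960 normalised counts of KEAP1, the Oct4 libraries 1396 and 1336, and the Sox2 libraries 1367 and 1265. The Klf4 libraries had 1899 and 1891 and the OSK libraries 1772 and 1902. Every Oct4 and Sox2 library was below every GFP, Klf4 and OSK library. The log2 change was -0.50 with Oct4 (SE 0.07; 0.709 of the GFP mean; limma adjusted p = 2.17e-05) and -0.55 with Sox2 (SE 0.07; 0.683 of the GFP mean; limma adjusted p = 5.46e-06). With Klf4 (-0.02) and OSK (-0.07) no change was detectable (limma adjusted p = 0.826 and 0.458). OSK exceeded the Oct4 and Sox2 lines by 0.43 and 0.48 (limma adjusted p = 0.000194 and 6.18e-05). KEAP1, at chromosome 19, 10486125 to 10503356, shares no exon with another gene in GENCODE 29.

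The small MAF genes, whose products pair with NRF2 and can also repress when paired with each other, moved differently in the single lines. MAFF had 445, 572 and 609 normalised counts in GFP, 461 and 481 with Oct4, 733 and 807 with Sox2, 966 and 959 with Klf4, and 792 and 794 with OSK. Its Sox2, Klf4 and OSK libraries were all above GFP, with Klf4 highest. The log2 change was 0.84 with Klf4 (SE 0.11; limma adjusted p = 1.79e-05), 0.56 with OSK (SE 0.11; limma adjusted p = 0.000594) and 0.52 with Sox2 (SE 0.11; limma adjusted p = 0.0011). With Oct4 the change of MAFF was -0.19 (limma adjusted p = 0.194), and without GFP replicate 1, the lowest GFP library, it passed at -0.32 (limma adjusted p = 0.00446).

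MAFG had 819, 1073 and 952 normalised counts in GFP, 1321 and 1185 with Oct4, 1636 and 1513 with Sox2, 844 and 926 with Klf4, and 1170 and 1232 with OSK. Sox2 was highest, and the Klf4 libraries overlapped GFP. The log2 change was 0.74 with Sox2 (SE 0.10; limma adjusted p = 1.57e-05), 0.41 with Oct4 (SE 0.10; limma adjusted p = 0.00389) and 0.35 with OSK (SE 0.10; limma adjusted p = 0.0101). With Klf4 it was -0.09 (limma adjusted p = 0.521). The MAFG rise was not past the threshold with Oct4 when Oct4 replicate 1 was left out (limma adjusted p = 0.0683), nor with OSK without OSK replicate 2 (limma adjusted p = 0.0964) or without both GFP replicate 1 and OSK replicate 1 (limma adjusted p = 0.0608). MAFG was 0.83 higher with Sox2 than with Klf4 (limma adjusted p = 1.20e-05). The line with the highest mean of MAFF thus had the lowest mean of MAFG, although Klf4 and OSK did not differ detectably in MAFF (limma adjusted p = 0.117). MAFG, at chromosome 17, 81918270 to 81931244, shares exon sequence with SIRT7 on the same strand, and the split of reads between them is uncertain.

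NFE2L1 encodes NRF1, a related factor anchored in the endoplasmic reticulum that controls proteasome genes. It had 11572, 12912 and 12936 normalised counts in GFP, 11119 and 10914 with Oct4, 14394 and 14992 with Sox2, 12043 and 12259 with Klf4, and 11182 and 11068 with OSK. Only the Sox2 libraries lay above GFP, and the Oct4 and OSK libraries lay below it. The rise with Sox2 was 0.24 on the log2 scale (SE 0.07; limma adjusted p = 0.0107), and it did not pass when Sox2 and GFP were fitted alone (limma adjusted p = 0.0668) or Sox2 replicate 2 was left out (limma adjusted p = 0.101). The changes with Oct4 (-0.18; limma adjusted p = 0.0542) and OSK (-0.16; limma adjusted p = 0.0723) did not pass. Without GFP replicate 1, which was the lowest GFP library, both passed (-0.23 and -0.22; limma adjusted p = 0.00182 and 0.00268), and with DESeq2 on all libraries both passed too (adjusted p = 0.0196 and 0.0348). NFE2L1 was lower with Oct4 than with Sox2 (-0.42, SE 0.08; limma adjusted p = 0.000426).

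**Figure D1:**
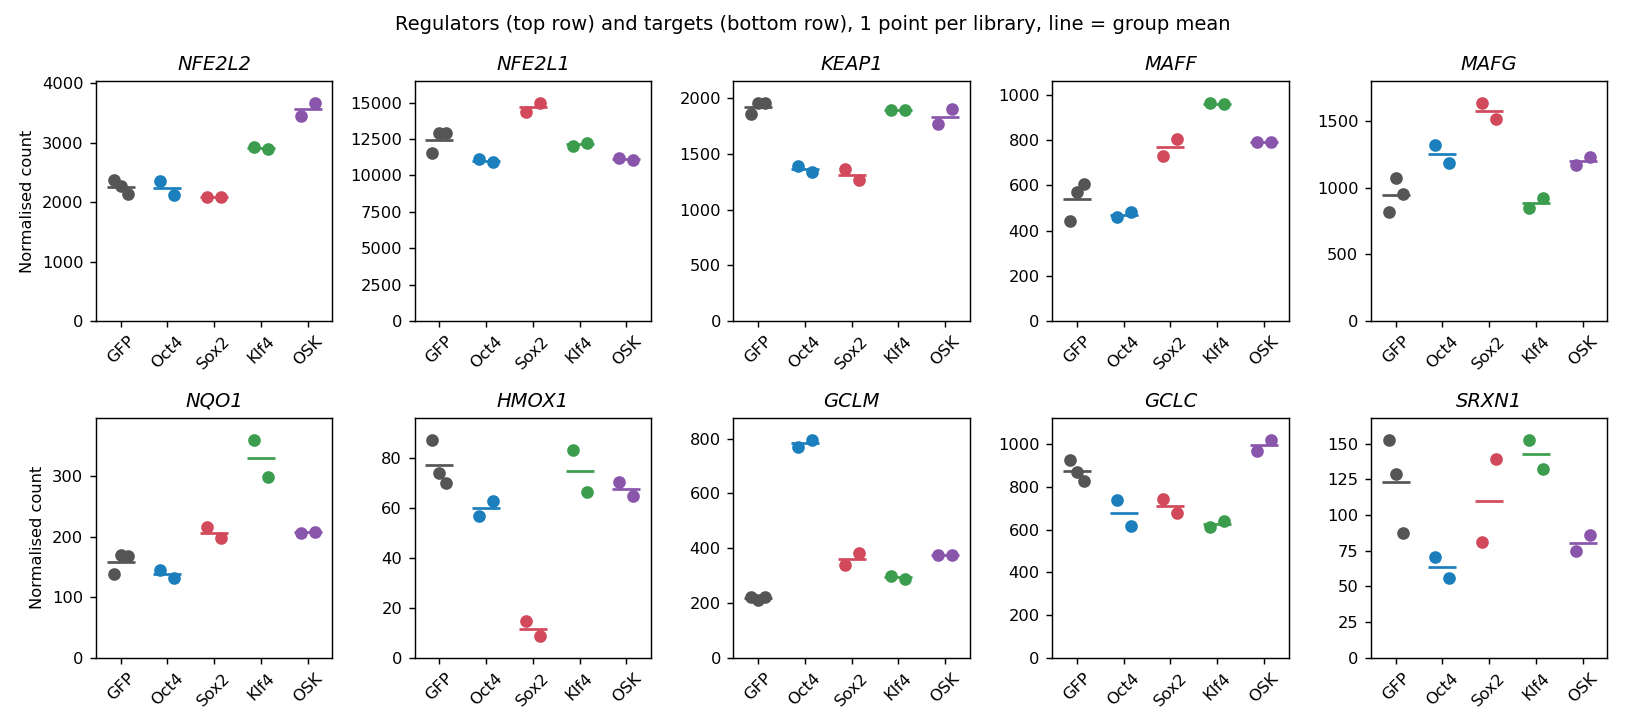
Normalised counts (vertical axes, each starting at 0) of the 5 regulators and 5 targets in each library, grouped by line, with a point per library and a line at the group mean. GCLM is highest in the Oct4 libraries (771 and 797), HMOX1 lowest in the Sox2 libraries (14.6 and 8.56), and NFE2L2 highest in OSK (3450 and 3671).

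GCLM and GCLC encode the modifier and catalytic subunits of glutamate-cysteine ligase, the enzyme that limits glutathione synthesis, and they moved apart. GCLM had 221, 209 and 223 normalised counts in GFP, 771 and 797 with Oct4, 340 and 381 with Sox2, 298 and 288 with Klf4, and 375 and 374 with OSK. All 8 factor libraries were above the 3 GFP libraries, and Oct4 was highest. The log2 change was 1.84 with Oct4 (SE 0.09; 3.60-fold; limma adjusted p = 3.71e-10), 0.78 with OSK (SE 0.09; 1.72-fold; limma adjusted p = 5.34e-06), 0.72 with Sox2 (SE 0.09; limma adjusted p = 1.03e-05) and 0.43 with Klf4 (SE 0.09; limma adjusted p = 0.00202). GCLM was lower in OSK than with Oct4 alone (-1.06, SE 0.10; limma adjusted p = 4.55e-07), and so was POU5F1, at 19281 against 67074 normalised counts. OSK and Sox2 did not differ detectably in GCLM (0.06, 95% interval -0.16 to 0.27).

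GCLC fell in each single-factor line and not in OSK. It had 926, 870 and 826 normalised counts in GFP, 737 and 617 with Oct4, 744 and 676 with Sox2, 614 and 642 with Klf4, and 969 and 1022 with OSK. Every single-factor library was below GFP and both OSK libraries were above it. The log2 change was -0.37 with Oct4 (SE 0.09; limma adjusted p = 0.00365), -0.30 with Sox2 (SE 0.09; limma adjusted p = 0.0127) and -0.48 with Klf4 (SE 0.09; limma adjusted p = 0.000618). With OSK it was 0.19 (SE 0.09; limma adjusted p = 0.11). GCLC in OSK was 0.56 above Oct4, 0.49 above Sox2 and 0.66 above Klf4, in log2 units (limma adjusted p = 0.000231, 0.000784 and 0.000111). The falls with Oct4 and Sox2 did not pass without Oct4 replicate 2 and Sox2 replicate 2 (limma adjusted p = 0.0925 and 0.146). The promoter window of GCLC, at chromosome 6, held no match to the element searched. That of GCLM, at chromosome 1, held the match printed above. Sequence outside these short windows was not searched, so an element elsewhere near GCLC would have been missed. Any link between a match and the changes of GCLM and GCLC was not tested.

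NQO1 encodes a quinone reductase and is often read as a report of NRF2 activity. It had 139, 170 and 168 normalised counts in GFP, 145 and 132 with Oct4, 215 and 198 with Sox2, 361 and 298 with Klf4, and 207 and 208 with OSK. Klf4 was highest, OSK and Sox2 lay just above GFP, and Oct4 overlapped it. The log2 change with Klf4 was 1.05 (SE 0.13; 2.07-fold; limma adjusted p = 1.68e-05). With OSK (0.39, SE 0.13; limma adjusted p = 0.0314) and Sox2 (0.38, SE 0.13; limma adjusted p = 0.0328) NQO1 just passed. Both calls were lost with DESeq2 (adjusted p = 0.108 and 0.116), with no filter (limma adjusted p = 0.0732 and 0.0762) and without GFP replicate 1 (limma adjusted p = 0.103 and 0.111). NQO1 was lower in OSK than with Klf4 alone (-0.66, SE 0.15; limma adjusted p = 0.00394; 0.0694 without Klf4 replicate 1), whereas NFE2L2 was higher. The groups followed the same order in NQO1 as in MAFF, Klf4 first, then OSK, Sox2, GFP and Oct4, though OSK and Sox2, and GFP and Oct4, did not differ detectably in either gene. In MAFF, Klf4 and OSK did not differ detectably either (limma adjusted p = 0.117), so most of the shared order is not resolved.

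HMOX1 encodes heme oxygenase, which breaks down heme and is held down by BACH1. It was scarce, with 10 to 88 reads per library. It had 87.4, 73.8 and 70.0 normalised counts in GFP and 14.6 and 8.56 with Sox2. The Oct4 libraries had 56.9 and 63.0, the Klf4 libraries 83.3 and 66.3, and the OSK libraries 70.5 and 64.9. The Sox2 libraries were far below the other 9, which ranged from 56.9 to 87.4. The log2 change with Sox2 was -2.67 (SE 0.26; 0.150 of the GFP mean; limma adjusted p = 4.37e-07), and OSK was 2.49 above the Sox2 line (SE 0.28; limma adjusted p = 2.85e-06). No change was detectable with Oct4 (-0.35), Klf4 (-0.05) or OSK (-0.18; limma adjusted p = 0.311, 0.912 and 0.632), though the intervals reach -0.90, -0.59 and -0.73. HMOX1, at chromosome 22, 35381096 to 35394207, shares no exon with another gene.

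SRXN1 encodes sulfiredoxin, which reactivates oxidised peroxiredoxins. It had 153, 128 and 87.5 normalised counts in GFP, 70.8 and 56.1 with Oct4, 80.8 and 140 with Sox2, 153 and 133 with Klf4, and 74.8 and 85.8 with OSK. Relative to the mean, its replicates were the most spread of the 5 targets in GFP and in Sox2. The Oct4 and OSK libraries were below all GFP libraries, while Sox2 and Klf4 overlapped them. The fall with Oct4 passed (-0.92, SE 0.25; 0.516 of the GFP mean; limma adjusted p = 0.00903), but not without Oct4 replicate 2 (limma adjusted p = 0.105) or without both GFP replicate 1 and OSK replicate 1 (limma adjusted p = 0.0558). With OSK the change was -0.57 (SE 0.25; limma adjusted p = 0.0833), and it passed without GFP replicate 3 (-0.80; limma adjusted p = 0.0202). SRXN1 exons overlap another coding gene model on the same strand, so reads of the pair may have been split.

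**Figure D2:**
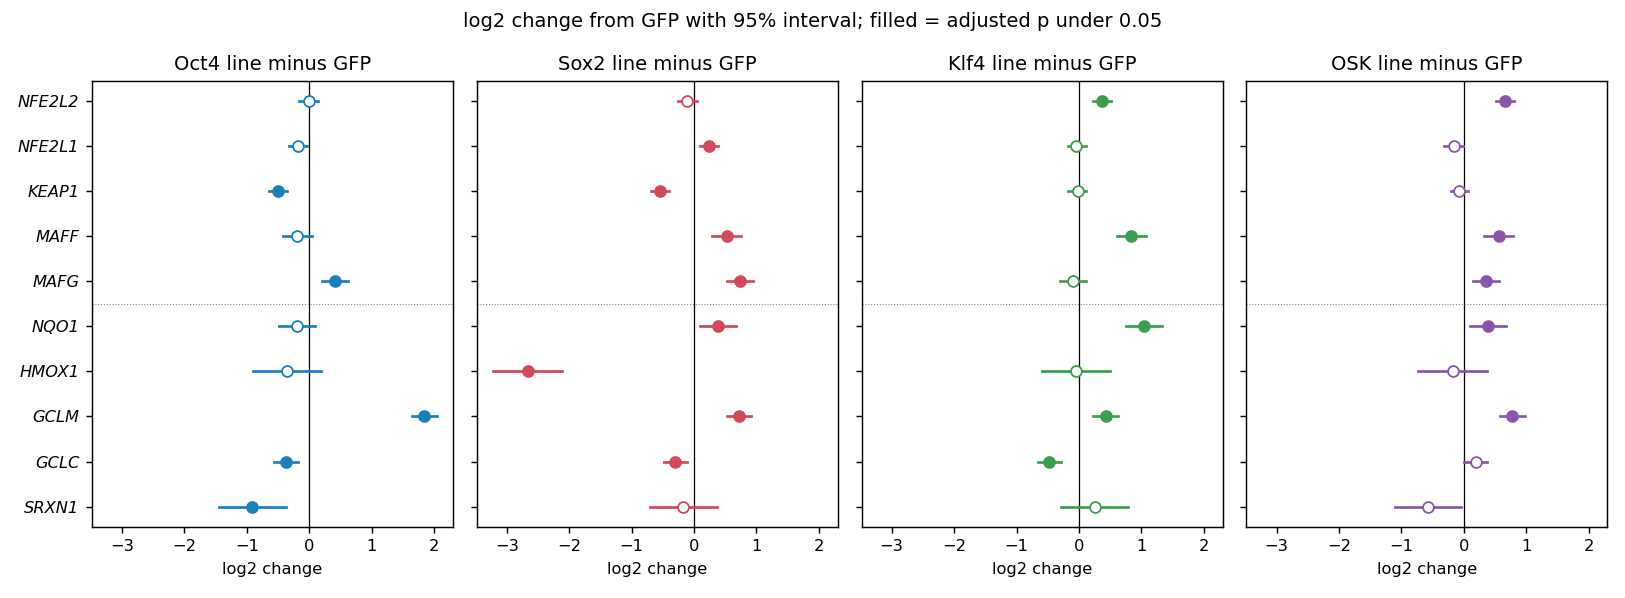
log2 change from GFP (horizontal axis) of each regulator (above the dotted line) and target (below) in the Oct4, Sox2, Klf4 and OSK lines, with 95% intervals. Filled points passed the test (limma adjusted p under 0.05). GCLM is the gene to the right of 0 and filled in all 4 panels.

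Of the 10 genes, 2 rose and 3 fell with Oct4, so that 5 changed, where 37.3% of all 18828 genes tested changed (20.1% higher, 17.2% lower). With Sox2, 5 rose and 3 fell, 8 in all, against a background of 41.6% (21.7% higher, 19.9% lower). With Klf4, 4 rose and 1 fell, 5 in all, against 33.5% (17.6% higher, 16% lower). With OSK, 5 rose and 0 fell, against 39.7% (19.7% higher, 20% lower). With Oct4, Klf4 and OSK, 5 of 10 is within 2 genes of what the background share would give, and nothing is read from it about the set. The median log2 change of the 10 was -0.19, 0.06, 0.11 and 0.27 in that order, beside medians of -0.02, -0.02, -0.02 and -0.01 over all genes. These comparisons share the GFP libraries, so chance in GFP enters all of them. The count for Oct4 was 3 without Oct4 replicate 2, that for Sox2 was 5 without Sox2 replicate 2, and that for OSK was 3 without OSK replicate 2.

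Regulators and targets did not move as a block in any line. In the Klf4 line, with NFE2L2 higher, NQO1 and GCLM rose, GCLC fell, and HMOX1 and SRXN1 did not pass. In OSK, with NFE2L2 highest, GCLM and NQO1 rose, and GCLC, HMOX1 and SRXN1 did not pass. In the Oct4 line, with KEAP1 lower and NFE2L2 not past the threshold, GCLM rose while GCLC and SRXN1 fell. In the Sox2 line, also with KEAP1 lower, GCLM and NQO1 rose, HMOX1 and GCLC fell and SRXN1 did not pass. Over the 11 libraries, which fall into 5 groups, Pearson's r of the log2 values with NFE2L2 was 0.49 for NQO1, 0.45 for HMOX1, 0.41 for GCLC, 0.03 for SRXN1 and -0.05 for GCLM. Among 16384 other named genes tested, these targets ranked from 3237 (NQO1) to 8793 (GCLM) by likeness to NFE2L2. Of the regulators, KEAP1 (r = 0.53) ranked 2970, MAFF (0.52) 3001, MAFG (-0.25) 10717 and NFE2L1 (-0.54) 13520. The most like were LPCAT3, SIAH2, ZNF720, ANAPC5 and BMS1P23 (r = 0.98 each), all highest in OSK and then Klf4, as NFE2L2 was. LPCAT3, a phospholipid acyltransferase, averaged 367 normalised counts in GFP, 1036 with Klf4 and 2816 with OSK. SIAH2, a ubiquitin ligase, averaged 396, 545 and 677. BMS1P23 is a pseudogene with close copies, and its counts are uncertain.

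**Figure D3:**
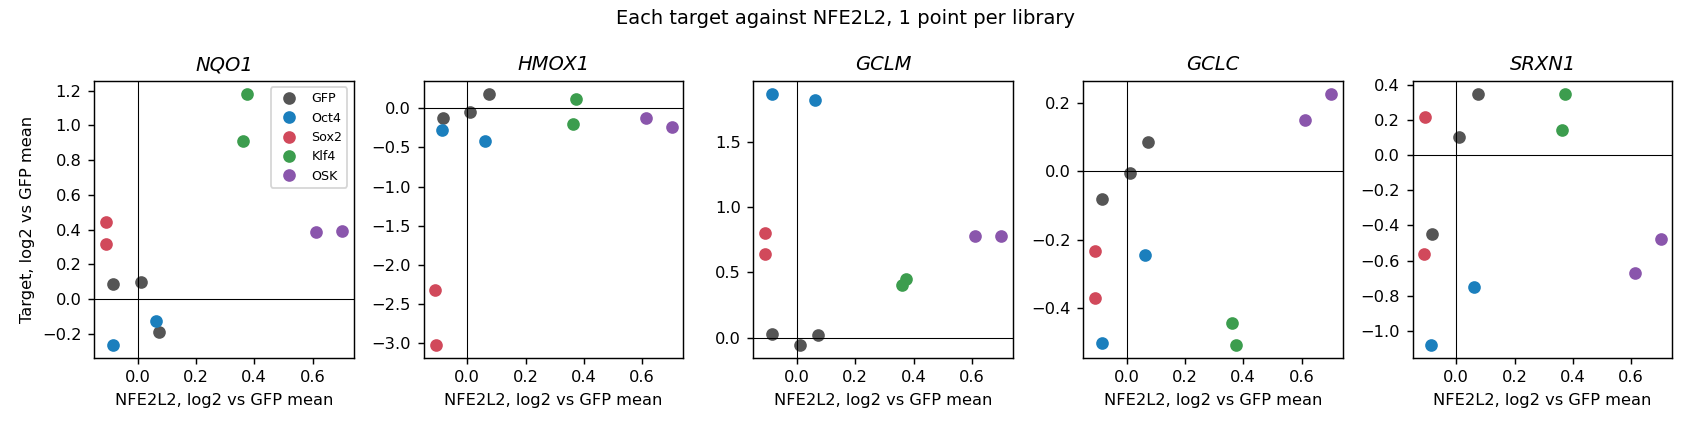
log2 value of each target (vertical axes) against that of NFE2L2 (horizontal axes), both relative to their GFP mean, with a point per library coloured by line. The OSK libraries are farthest right in every panel, while the highest target values belong to Klf4 for NQO1, to Oct4 for GCLM and to OSK for GCLC.

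OSK was set against each single-factor line for the 10 genes. Compared with Oct4, 5 were higher and 1 lower in OSK, where 40.3% of all genes were called (18.4% higher, 21.9% lower). Compared with Sox2, 4 were higher and 2 lower (background 40.5%, with 20% higher and 20.5% lower). Compared with Klf4, 4 were higher and 2 lower (background 21.5%, with 9.56% higher and 11.9% lower). NFE2L2 and GCLC were higher in OSK than in each single line. Against Klf4, GCLM was also higher (0.35; limma adjusted p = 0.0205) and SRXN1 lower (-0.82; limma adjusted p = 0.0444). Both of these were lost with DESeq2 (adjusted p = 0.0855 and 0.0591). Without Klf4 replicate 1 only 1 of the 10 still differed from Klf4, without Klf4 replicate 2 it was 3, and without OSK replicate 2 it was 2.

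Single lines also differed from each other. Oct4 and Sox2 differed in 7 of the 10 genes (33.4% of all genes, 18% higher and 15.4% lower in Oct4): GCLM and HMOX1 were 2.17-fold and 5.18-fold higher in Oct4, and 5 genes were lower there. Oct4 and Klf4 differed in 7, with 2 higher and 5 lower in Oct4 (41.7% of all genes, 21.8% higher and 20% lower). Sox2 and Klf4 differed in 8, with 3 higher and 5 lower in Sox2 (40.8% of all genes, 20.1% higher and 20.7% lower). Of these calls, 3 were lost with DESeq2: SRXN1 lower in Oct4 than Sox2 (limma adjusted p = 0.0489; DESeq2 0.0585), MAFF lower in Sox2 than Klf4 (limma adjusted p = 0.0410; DESeq2 0.0641) and GCLM higher in Sox2 than Klf4 (limma adjusted p = 0.0294; DESeq2 0.115). GCLM was 1.42 higher in Oct4 than in Klf4 (limma adjusted p = 1.42e-08), whereas NQO1 was lower there (-1.24; limma adjusted p = 4.37e-06). These 2 targets therefore ranked Oct4 and Klf4 in opposite order. Without Oct4 replicate 2 the first of these counts was 4, and without Sox2 replicate 2 or Klf4 replicate 1 the last was 5.

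The OSK change was set against the added log2 changes of the 3 single lines. OSK differed from that sum in 8 genes (4 above, 4 below; 35.9% of all genes, 15.6% above and 20.3% below), and in 5 without GFP replicate 1 or without Klf4 replicate 1. Without both GFP replicate 1 and OSK replicate 1, 4 were past the threshold. It lay above the sum for HMOX1 (2.89, SE 0.51; limma adjusted p = 0.000359), GCLC (1.34, SE 0.18; limma adjusted p = 2.45e-05), KEAP1 (1.00, SE 0.13; limma adjusted p = 2.4e-05) and NFE2L2 (0.41, SE 0.14; limma adjusted p = 0.0304). It lay below for GCLM (-2.21, SE 0.19; limma adjusted p = 1.95e-07), NQO1 (-0.84; limma adjusted p = 0.0228), MAFG (-0.71; limma adjusted p = 0.0108) and MAFF (-0.61; limma adjusted p = 0.0402). For HMOX1 and KEAP1 no change from GFP was detectable in OSK, while HMOX1 had fallen with Sox2 and KEAP1 with Oct4 and Sox2. The calls of NFE2L2, MAFF and NQO1 against the sum were unstable, holding in 11, 8 and 14 of 21 alternatives. All 3 were lost without GFP replicate 1 (limma adjusted p = 0.0576, 0.127 and 0.0747) and with no filter (limma adjusted p = 0.0804, 0.124 and 0.0540). MAFF was also lost with edgeR (adjusted p = 0.0547), and MAFF and NQO1 with DESeq2 (adjusted p = 0.0855 and 0.0889).

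Other regulators of the pathway, a list of 14 genes of which 13 were tested, rose in 6 and fell in 2 cases with Oct4. In the Sox2 line 4 rose and 2 fell, in Klf4 3 and 3, and in OSK 1 and 2. These totals of 8, 6, 6 and 3 of 13 stand beside 37.3%, 41.6%, 33.5% and 39.7% of all genes called. Their medians were 0.07, 0.05, -0.01 and 0.07. The Oct4 count of 8 was 4 without Oct4 replicate 1. SQSTM1, which encodes p62, a protein that can sequester KEAP1, fell in all 4 lines. It had 6776 to 7995 normalised counts in the GFP libraries and 4460 to 5909 in the factor libraries. Its log2 change was -0.59 with Oct4, -0.72 with Sox2, -0.39 with Klf4 and -0.71 with OSK (limma adjusted p at most 0.000693). BACH1, the repressor that competes with NRF2, rose with Oct4 (0.50, SE 0.08) and fell with Sox2 (-0.84, SE 0.08) and OSK (-0.30, SE 0.08; limma adjusted p = 0.000180, 6.82e-07 and 0.00942). In the Sox2 line the BACH1 mean of 596 stood beside the lowest HMOX1, 11.6. BACH2, its relative, rose with Oct4 (1.26) and Sox2 (0.90) and fell with Klf4 (-0.67). BTRC, a subunit of another ubiquitin ligase that can degrade NRF2, rose with Sox2 (0.53), Klf4 (0.49) and OSK (0.78). DPP3, a peptidase that can bind KEAP1, rose with Sox2 (0.99), where its mean was 1971 against 997 in GFP. NFE2L3, of the NRF family, rose with Klf4 (0.86) and fell with Oct4 (-0.41). Small changes were CREBBP with Oct4 (0.48) and Klf4 (-0.25) and MAFK with Klf4 (0.28) and Oct4 (0.22). CUL3, of the ligase that KEAP1 serves, rose with Sox2 (0.37; limma adjusted p = 0.000224) and Oct4 (0.19; limma adjusted p = 0.0288). Those were the lines in which KEAP1 fell. EP300 rose with Oct4 (0.24; limma adjusted p = 0.0128).

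Further NRF2 targets, 35 genes of which 32 were tested, moved in both directions in every line. In the Oct4 line 7 rose and 10 fell, in Sox2 9 rose and 10 fell, in Klf4 7 rose and 10 fell, and in OSK 8 rose and 8 fell. These totals of 17, 19, 17 and 16 of 32 stand beside 37.3%, 41.6%, 33.5% and 39.7% of all genes called. Their median log2 changes were -0.10, -0.15, -0.16 and 0.02. TXNRD1, the cytosolic thioredoxin reductase, fell in all 4 lines, from 17018 to 17728 normalised counts in the GFP libraries to 5025 to 11293 in the factor libraries. Its change was largest with Sox2 (-1.72, SE 0.07), then OSK (-1.31), Klf4 (-1.07) and Oct4 (-0.64; limma adjusted p at most 2.99e-06). The transporter ABCC4 also fell in all 4 lines, with Oct4 (-1.02), Sox2 (-0.55), Klf4 (-1.05) and OSK (-0.79). FTH1, the ferritin heavy chain, fell with Oct4 (-0.91), Sox2 (-0.98) and OSK (-0.97). ABCB6 fell with Oct4 (-1.10) and Klf4 (-1.57) from a low mean of 34.7.

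The largest rises among further targets differed by line, and several of these genes also changed in other lines. With Oct4, UGDH, which makes UDP-glucuronate, went from 418 to 466 in the GFP libraries to 2426 and 2511 (2.49, SE 0.08; limma adjusted p = 2.11e-12). UGDH also rose, by less, with Sox2 (0.38), Klf4 (0.32) and OSK (0.35). ABCC3, a transporter of conjugates, had 384, 274 and 212 in GFP and 1899 and 1579 with Oct4 (2.62, SE 0.19; limma adjusted p = 2.75e-08), and the glutathione reductase gene GSR rose by 1.38. GSR also rose with OSK (1.28) and Klf4 (0.39), whereas ABCC3 fell with Klf4 (-0.66). With Sox2, SLC7A11, the cystine transporter that feeds glutathione synthesis, went from 21.4 to 28.3 in GFP to 205 and 206 (2.95, SE 0.22; limma adjusted p = 1.99e-08). Malic enzyme ME1 (2.50) and the microsomal glutathione transferase MGST1 (2.85-fold) rose there too, while the transporter ABCC1 fell (-0.71). MGST1 also rose with OSK (0.78) and Klf4 (0.32), and ABCC1 rose with Oct4 (0.51) and fell with Klf4 (-0.26). With Klf4, the heme transporter SLC48A1 rose (2.07, SE 0.07), as did SLC7A11 (1.45) and the transketolase TKT (0.42). SLC48A1 also rose with OSK (1.30) and fell with Sox2 (-0.62), and TKT fell with Oct4 (-0.72) and Sox2 (-0.69). With OSK, SLC7A11 (2.55) and ABCC1 (1.44, SE 0.08) rose, and CBR3, a carbonyl reductase, was at least 6.97-fold higher, since each GFP library had at most 3 reads.

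**Figure D4:**
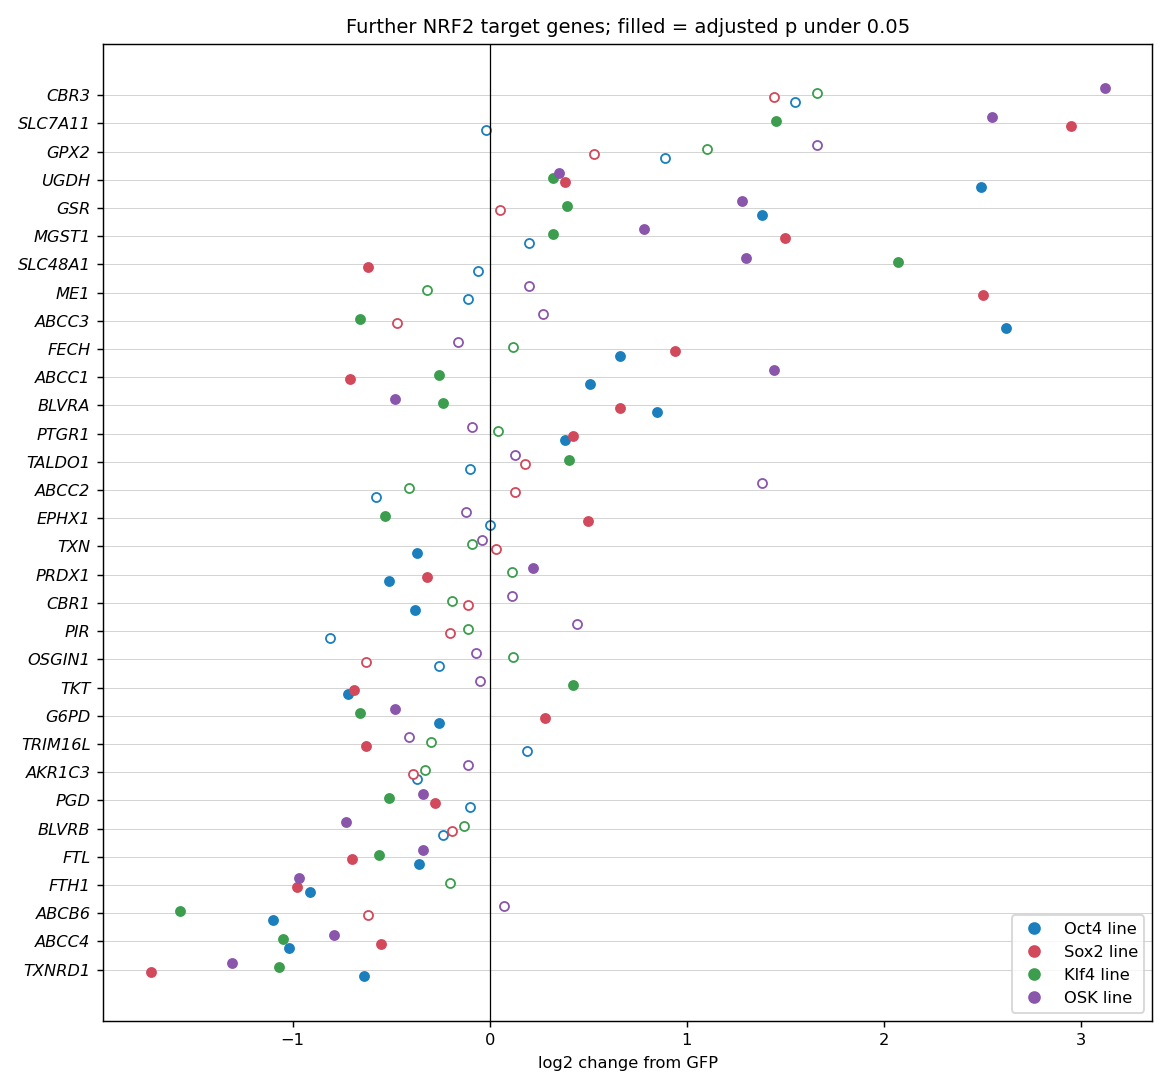
log2 change from GFP (horizontal axis) of the 32 tested further NRF2 targets (rows, ordered by their mean over the lines) in the 4 factor lines, filled where limma adjusted p was under 0.05. TXNRD1, ABCC4 and FTL lie below 0 and filled in all 4 lines. UGDH lies above 0 and filled in all 4 lines, and UGDH and SLC7A11 spread widely between lines.

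Proteasome subunits, the known targets of NFE2L1, made small changes. Of 31 genes, all tested, 8 rose with Oct4, 11 with Sox2, 4 with Klf4 and 7 with OSK, and 1 fell in each line. The totals of 9, 12, 5 and 8 of 31 lie below the shares of all genes called, 37.3%, 41.6%, 33.5% and 39.7%. By direction, 20.1%, 21.7%, 17.6% and 19.7% of all genes rose and 17.2%, 19.9%, 16% and 20% fell. The falls were thus few in each line, while the share of rises was below that of all genes only with Klf4. Medians were 0.04, 0.11, 0.06 and 0.10. Rises that were largest within a line were PSMA5 (0.70), PSMD3 (0.66) and PSMB2 (0.49) with Oct4, and PSMD2 (0.65), PSMD14 (0.52) and PSMD8 (0.45) with Sox2. Mean NFE2L1 was highest with Sox2 (14693 normalised counts) and lowest with Oct4 (11017), and any link to these rises was not tested. PSMA6 (0.80) and PSMC5 (0.32) rose most with Klf4 and also with OSK (0.93 and 0.40). PSMB5 fell with Oct4 (-0.23) and Sox2 (-0.19), PSMD2 with Klf4 (-0.22) and PSMB7 with OSK (-0.22). Leaving out a library brought the totals of 9, 12, 5 and 8 down to 3 (Oct4 replicate 2), 5 (Sox2 replicate 2), 3 (Klf4 replicate 1, GFP replicate 2 or either Sox2 library) and 4 (OSK replicate 2). For Oct4, Sox2 and OSK the other library of the line took them to 4 (Oct4 replicate 1), 7 (Sox2 replicate 1) and 5 (OSK replicate 1). Of 4 genes that process NFE2L1 protein (DDI2, NGLY1, VCP and SEL1L), 2 changed with Oct4, 4 with Sox2, 2 with Klf4 and 3 with OSK. Directions were mixed: 1 rose and 1 fell with Oct4, 2 and 2 with Sox2, 1 and 1 with Klf4, and 2 and 1 with OSK. With so few genes, nothing is read from these counts beside 37.3%, 41.6%, 33.5% and 39.7% of all genes. NGLY1, the glycanase that NFE2L1 needs, fell in all 4 lines (-0.66, -0.38, -0.38 and -0.43), and was chosen for naming after its values were seen.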

How the data were processed

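Polyadenylated RNA of 11 ARPE-19 libraries was analysed from 1 deposited table of 60605 features. From the values, its deposited numbers are a signal, gene counts that the authors divided by 1 factor per library and rounded to 2 decimals. Every library's values up to 200 came out as whole reads (100.0%, tolerance 0.0061), and at least 99.951% of all nonzero values did. Reads recovered this way totalled 15053300 to 19791775 per library. For GFP replicates 1 and 2 the step lies so near 1 (0.993 and 1.0116) that their recovered reads are less certain. STAR 2.7.1a and featureCounts 1.6.2 are named in the submitters' processing notes, with human and mouse builds and no roles. Strand use is not given in the sources used here, and near-identical or overlapping genes can share reads.

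The main test was limma 3.58.1 (R 4.3.3, trend) on log2(value + 1), a scale that understates the change of low genes. The model had a coefficient for each group and used all 11 libraries. It covered the 18828 genes that reached 10 in 2 or more libraries, with Benjamini-Hochberg adjustment across them and a threshold of 0.05. Fold changes are ratios of group means. The procedure was tested on simulated data. Alternatives were edgeR 4.0.16 and DESeq2 1.42.0 on recovered reads, other scalings, pseudocounts, filters, fits of the compared groups only, a block for the replicate number, and the omission of each library. On recovered reads edgeR called 3638 genes higher and 3136 lower with Oct4, 4233 and 3601 with Sox2, 3245 and 2803 with Klf4, and 3708 and 3524 with OSK.

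The 10 members and all gene lists were chosen with earlier results of these data known. The lists, from general knowledge, were other NRF2 regulators (14 genes), other NRF2 targets (35), proteasome subunits controlled by NFE2L1 (31), genes that process NFE2L1 (4), and markers of RPE (13), pluripotent (7) and fibroblast cells (7). All members are named. From each of the first 3 lists, at most 3 rises and 3 falls per line were eligible. These were the largest among genes past the threshold whose libraries did not overlap GFP. Some genes named this way are also given for further lines. Other genes picked from any list, including the markers named singly, were chosen after their values were seen. The 5 genes most like NFE2L2 were taken by Pearson's r over the libraries.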

Additional observations from a re-analysis of the deposited data

How the results depend on the processing

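Of the changes of the 10 genes against GFP, 836 of 880 values under the alternatives kept their direction and side of the threshold, 23 lost the call, 11 gained it and 10 changed sign without being past the threshold. Between lines 1241 of 1320 were kept, and against the sum of single changes 177 of 210. None that was called changed sign. With no filter on low values, 5 other regulators changed with Oct4, 4 and 7 proteasome genes with Oct4 and Sox2, 3 with Klf4, and 5 of the 10 genes differed from the sum. For proteasome genes with Klf4, DESeq2 gave 3 and a fit of the compared groups 2. Without GFP replicate 1 and OSK replicate 1, an alternative chosen after seeing the data, 4 genes differed from the sum. The cause of these differences was not tested.

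Leaving out each library in turn, the count among the 10 genes ranged from 3 to 7 with Oct4, 5 to 8 with Sox2, 5 to 5 with Klf4 and 3 to 6 with OSK. For OSK it ranged from 6 to 6 against Oct4, 5 to 6 against Sox2, 1 to 7 against Klf4 and 5 to 8 against the sum. For Oct4 against Sox2 it ranged from 4 to 7, for Oct4 against Klf4 from 7 to 8 and for Sox2 against Klf4 from 5 to 8. Other regulators ranged from 4 to 8 with Oct4, and proteasome genes from 3 to 9, 5 to 13, 3 to 5 and 4 to 8 with Oct4, Sox2, Klf4 and OSK. A line left with 1 library is assumed to vary like the other groups.

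Replicate differences of same-numbered libraries correlated between groups by -0.07 to 0.41, the highest for GFP with OSK, so the numbers were not taken to pair samples. With the replicate number as a block, where GFP replicate 3 carries no information, 108 of 110 changes of the 10 genes kept their call: SRXN1 passed in OSK (-0.80; limma adjusted p = 0.0264), GCLM did not between Sox2 and Klf4 (0.30; limma adjusted p = 0.0506), and 5 proteasome genes changed with OSK. HMOX1, with 10 to 13 reads in the Sox2 libraries, is the gene most limited by depth.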
